A study of Mus musculus with 12 samples.

Results

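Rab proteins are small GTPases that mark the membranes of the cell and direct traffic between them. The 55 genes described here are all gene symbols made of Rab, a number and at most a letter and a digit, in the wild-type table of deposited normalized counts, out of 16516 gene symbols in the deposited tables of normalized counts together. Each gene was given a primary role, chosen with earlier results of these data known, and some, such as Rab29 and Rab43, also act elsewhere. The endosomal groups were early endosomal (6 genes), recycling (7) and late endosomal and autophagic (6). Secretory groups were endoplasmic reticulum (ER) and Golgi (11), Golgi to plasma membrane (4) and regulated granule secretion (8). The rest were phagosomal and lysosome-related (7) and other (6). The study measured polyadenylated RNA by strand-specific sequencing in mouse bone marrow-derived macrophages (BMMs), which are cells grown out of bone marrow. BMMs labelled MGMT KO (KO below) or wild-type, WTfl/fl (WT below), were given DMXAA, an agonist of mouse STING, or its vehicle DMSO for 24 h. The labels give the DMXAA dose as 10 mg/ml. There were 3 libraries each of KO BMMs with DMXAA, WT BMMs with DMXAA, KO BMMs with DMSO and WT BMMs with DMSO. All 12 libraries carry the same batch label. The labels give neither the deleted part of the gene Mgmt (O6-methylguanine-DNA methyltransferase, a DNA repair protein) nor a Cre driver, an age or a strain, and they do not say whether the libraries of a group came from separate mice. The p-values below therefore measure only the spread between these libraries, which may be technical.

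A Rab works as a switch. A guanine nucleotide exchange factor (GEF) loads it with GTP on the right membrane, where it recruits effectors such as tethers and motor adaptors, and a GTPase-activating protein (GAP) turns it off. The Rab escort proteins (REP) bring a new Rab to the enzyme that adds its lipid anchor, and GDP dissociation inhibitors (GDI) carry the inactive Rab between membranes. In macrophages, Rab GTPases control the maturation of phagosomes, the sorting of receptors in endosomes and the secretion of cytokines and granules. STING itself moves from the ER to the Golgi once activated and is later degraded in lysosomes.

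The libraries held 79482003 to 98135869 reads assigned to genes, and the Rab genes took 0.310% to 0.315% of them in KO DMXAA libraries, 0.320% to 0.321% in WT DMXAA, 0.339% to 0.348% in KO DMSO and 0.344% to 0.352% in WT DMSO libraries. Mgmt, the targeted gene, was lower in KO but not absent, with 33 to 61 reads in KO DMXAA libraries, 85 to 107 in WT DMXAA, 121 to 162 in KO DMSO and 243 to 263 in WT DMSO libraries. All 10 macrophage markers were detected, and their summed level, in reads per M assigned reads (RPM), was 9833 to 9956 RPM in KO DMXAA, 11820.3 to 12063 in WT DMXAA, 16997 to 17769 in KO DMSO and 20898 to 21326 in WT DMSO libraries. The marker sums of mast, erythroid, stromal, lymphoid and dendritic cells and of neutrophils reached at most 7.75 RPM. For dendritic cells, with 6 of 6 markers detected, the sum was 5.51 to 6.71 RPM in KO DMXAA, 5.73 to 5.80 in WT DMXAA, 0.574 to 0.676 in KO DMSO and 0.266 to 1.019 in WT DMSO libraries. For neutrophils the sum was 0.774 to 0.834 RPM in KO DMXAA, 2.72 to 3.06 in WT DMXAA, 0.744 to 1.28 in KO DMSO and 5.47 to 7.75 in WT DMSO libraries. The sum of 6 monocyte markers was 115 to 179.7 RPM in KO DMXAA, 138 to 143 in WT DMXAA, 26.3 to 28.5 in KO DMSO and 20.5 to 29.4 in WT DMSO libraries. For endothelial cells and megakaryocytes together, with 5 of 6 markers detected and the platelet gene Gp9 at 0, it was 63.5 to 64.3 in KO DMXAA, 60.1 to 64.4 in WT DMXAA, 16.8 to 17.8 in KO DMSO and 20.7 to 26.0 in WT DMSO libraries. These sums differ between the treatments and, for macrophage and neutrophil markers, between the genotypes, and their part in the Rab results was not tested. The genotype gap of the macrophage sum lay mainly in 1 of its 10 markers, Lyz2. Lyz2 had 198513 to 209374 reads in KO DMXAA libraries and 332813 to 379262 in WT DMXAA libraries. With DMSO it had 590813 to 622192 reads in KO and 861230 to 1053254 in WT libraries. In bulk RNA, fewer cells of a type and less RNA per cell cannot be told apart.

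By reads per kilobase of exon per M assigned reads (RPKM, computed here from the recovered reads), Rab7 was the most abundant Rab in all 4 groups. Rab7 drives the fusion of late endosomes, phagosomes and autophagosomes with lysosomes. Its level was 336 ± 9.33 in KO DMXAA, 363 ± 5.35 in WT DMXAA, 427 ± 5.20 in KO DMSO and 426 ± 8.59 in WT DMSO libraries (SD, n = 3 each). Rab7 alone supplied 27.3% to 32.8% of all Rab reads. Rab5c, an early endosomal Rab, followed with 167 ± 1.80 in KO DMXAA, 159 ± 3.32 in WT DMXAA, 129 ± 7.42 in KO DMSO and 138 ± 4.45 in WT DMSO libraries. Next were Rab7b with a mean over all libraries of 48.2, Rab1b with 40.7 and Rab8b with 33.7 RPKM. Rab7 and Rab5c stood apart from each other and from all the others in every group, whereas Rab1a and Rab2a, with an equal mean of 28.1 over all libraries, came in either order depending on the treatment. On this scale, which takes all assigned reads as the base, Rab7 had lower values with DMXAA than with DMSO, while on the deposited scale used below it was not called in either genotype.

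**Figure D1:**
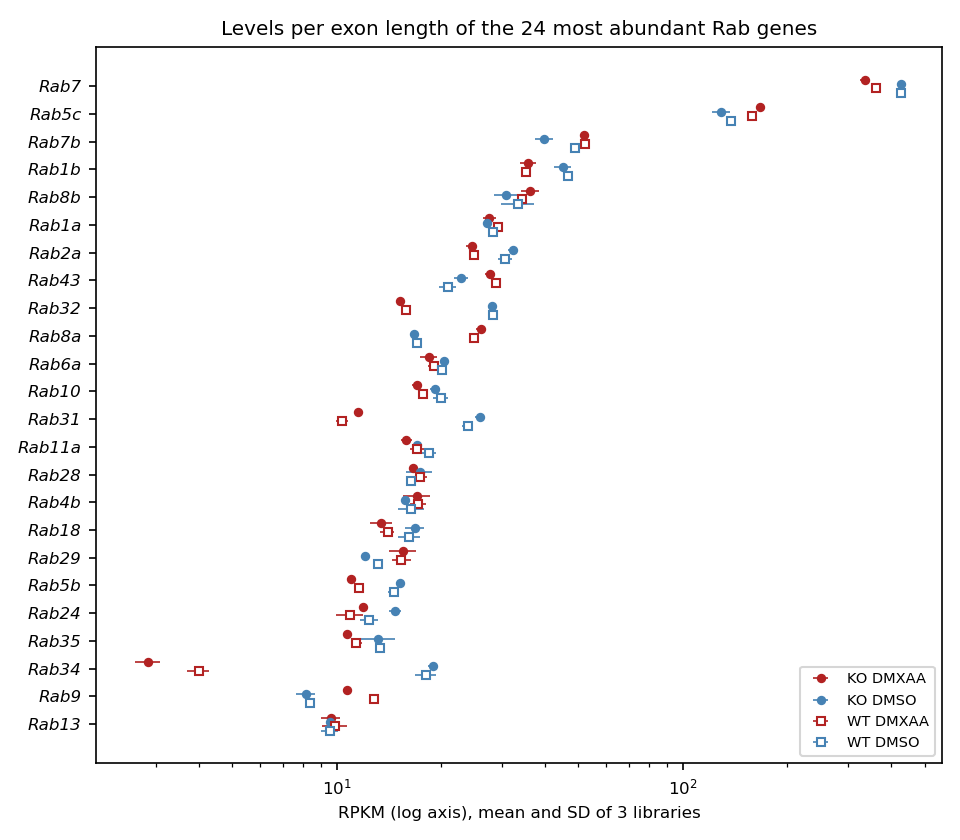
Levels of the 24 most abundant Rab genes, in RPKM (reads per kilobase of exon per M assigned reads) on a log axis, as the mean and SD of 3 libraries per group (filled, KO; open, WT; red, DMXAA; blue, DMSO). Rab7 and Rab5c lie to the right of all the others in each group, and Rab34 shows the widest distance between treatments.

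In response to DMXAA, 7 of the 45 Rab genes tested in both genotypes rose and 10 fell in both under each of 3 ways of scaling the libraries. The share of all genes that meet this joint rule was not computed, so the counts do not set the family apart. Those that rose were Rab5c and Rab22a of early endosomes, Rab9 and Rab29 of late endosomes and the Golgi, Rab19, Rab8a of the secretory route and Rab43. Those that fell were Rab31 of early endosomes, Rab4a of recycling endosomes, Rab33b of autophagosome formation, Rab6b of the Golgi, Rab3d and Rab44 of secretory granules, Rab20, Rab32 and Rab34 of phagosomes and lysosome-related organelles, and Rab23. Of the 10, Rab44 had few reads and passed the filter on low values (a mean of at least 10) only through its DMSO libraries. Its fall therefore carries no weight in this count. Among members whose normalized counts averaged 100 or more, the largest changes were those of Rab6b and Rab34, which fell, and Rab19, which rose. Each comparison was fitted with limma on log2(normalized count + 1) within 1 deposited table, p-values were adjusted by the Benjamini-Hochberg method over all genes tested, and a gene was called at an adjusted p below 0.05. Changes and differences are given on the log2 scale as the estimate ± SE.

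On the deposited scale, 45 members passed the filter on low values (a mean of at least 10) in KO BMMs, and 18 were called higher and 10 lower, against a background of 66.6% of all 12704 tested genes called, 33.7% higher and 32.9% lower. In WT BMMs 46 passed, with 19 higher and 11 lower, against 62.8% of 12752 genes called, 31.7% higher and 31.1% lower. The median log2 change of the tested members was 0.08 in KO and 0.11 in WT BMMs, beside medians near 0 (-0.0033 and -0.0027) for all genes. How many rose depended on the scaling. With libraries scaled to the same upper quartile, 15 were higher and 16 lower in KO BMMs (25% and 43.2% of all genes) and 14 higher and 14 lower in WT BMMs (24% and 40.2% of all genes). With libraries scaled to the same total, 9 were higher and 27 lower in KO (15.7% and 61.7% of all genes) and 7 higher and 24 lower in WT BMMs (16% and 55.6% of all genes). These scalings moved the median of all genes by -0.15 and -0.39 in KO and by -0.13 and -0.32 in WT BMMs, so a rise smaller than these shifts changes sign between the scalings. The median over the members with the same total was -0.31 in KO and -0.20 in WT BMMs, beside -0.39 and -0.32 for all genes. With the same total, 14 members that were not called on the deposited scale were called lower in KO BMMs, and 12 of these had the same change of call in WT BMMs. The 12 were Rab1b, Rab2a, Rab2b, Rab3a, Rab5b, Rab7, Rab11b, Rab12, Rab14, Rab18, Rab35 and Rab40c, and the others were Rab24 and Rab27a. The share of all genes with this change of call was not computed. Lower calls over all genes rose from 32.9% to 61.7% in KO and from 31.1% to 55.6% in WT BMMs, so these members are not set apart. On the deposited scale, all 28 members called in KO BMMs were called the same way in WT BMMs, which is 93.3% of the 30 called there, and Rab27a and Rab39 were called in WT BMMs alone. The same agreement was not computed over all genes, so whether it is particular to the Rab genes cannot be judged. Groups of 3 libraries did not overlap for 31 members in KO (background 71%) and for 35 in WT BMMs (background 68.8%).

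**Figure D2:**
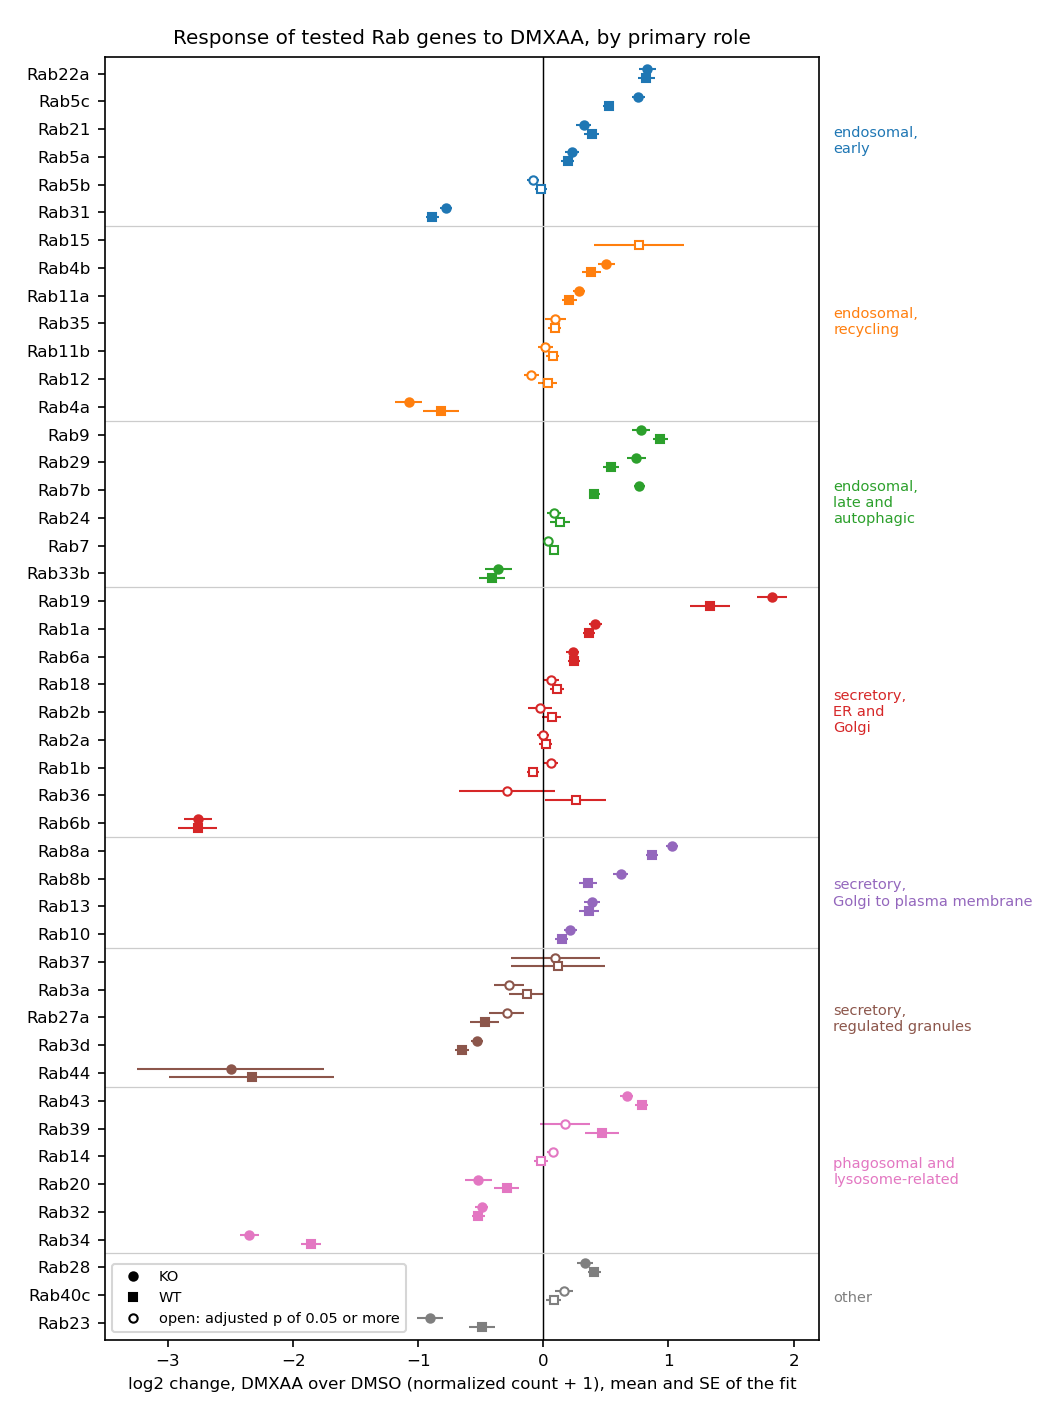
Log2 change with DMXAA over DMSO (horizontal axis, estimate and SE of the fit) of each Rab gene that passed the filter, ordered by role, in KO (circles) and WT (squares) BMMs on the deposited scale; filled symbols have an adjusted p below 0.05. Rab6b, Rab34 and Rab44 lie farthest to the left and Rab19 farthest to the right, and of the members called higher here, Rab5a, Rab6a, Rab10 and Rab11a change sign with the same total per library in both genotypes and Rab21 and Rab28 in KO.

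Of the 6 early endosomal Rabs, 4 were called higher and 1 lower in each genotype. Of all genes, 33.7% were higher and 32.9% lower in KO and 31.7% and 31.1% in WT BMMs. The counts of every role group below stand beside these shares, and each group holds few genes. The Rab5 isoforms control the fusion of early endosomes. Rab5c had 37812, 38655 and 37822 normalized counts in the KO DMXAA libraries, against 22198, 21159.6 and 24319 in the KO DMSO libraries. In WT BMMs, Rab5c had 33465, 33902 and 35126 normalized counts in the WT DMXAA libraries, against 23207, 23543 and 24606 in the WT DMSO libraries. The treatments did not overlap in either genotype, and the log2 change was 0.76 ± 0.05, adjusted p = 4.19e-07 in KO and 0.52 ± 0.04, adjusted p = 3.01e-06 in WT BMMs. Rab5a was called higher by 0.23 and 0.19 on the log2 scale in KO and WT, but its value was -0.16 and -0.12 with the same total per library. With that scaling it was called lower in KO and not called in WT BMMs. Rab5b was not called, with -0.08 ± 0.05 in KO and -0.02 ± 0.05 in WT BMMs, but was called lower under both other scalings (-0.47 and -0.34 with the same total). Rab5c was also the most abundant of these isoforms per exon length.

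Rab22a and Rab31 are close relatives (Rab31 is also called Rab22b) and moved in opposite directions. Rab22a acts in early endosome sorting and in phagosome maturation, and Rab31 acts between the Golgi and endosomes. Rab22a, at chr2:173659760-173707343 (mm10), had 2311, 2275 and 2168 normalized counts in the KO DMXAA libraries, against 1235, 1202 and 1359 in the KO DMSO libraries. Its WT values were 2256, 2409 and 2553 with DMXAA, against 1346, 1288 and 1439 with DMSO, and all DMXAA libraries were above all DMSO libraries. The log2 change was 0.83 ± 0.07, adjusted p = 1.63e-06 in KO and 0.82 ± 0.07, adjusted p = 4.38e-06 in WT BMMs. Rab31, at chr17:65651729-65772752, had 4536, 4576 and 4598 normalized counts in the KO DMXAA libraries, against 7756, 7572 and 8235 in the KO DMSO libraries. The WT values were 3988, 3746 and 3905 with DMXAA, against 6907, 7238 and 7382 with DMSO. Every DMXAA library was below every DMSO library of its genotype, with log2 changes of -0.78 ± 0.05, adjusted p = 1.92e-07 in KO and -0.89 ± 0.05, adjusted p = 2.24e-07 in WT BMMs. Rab21, which traffics integrins, was called higher by 0.32 in KO and 0.39 in WT BMMs, but with the same total per library it had -0.07 and 0.07, neither called.

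Among the recycling Rabs, 2 of 6 tested in KO and 2 of 7 tested in WT BMMs were called higher, and Rab4a was called lower in both. Rab4 proteins return receptors from early endosomes to the surface by the fast route. Rab4a, at chr8:123805985-123835287, had 238, 208 and 203 normalized counts in the KO DMXAA libraries, against 451, 442 and 476 in the KO DMSO libraries. With WT BMMs the values were 220.3, 244 and 270.4 with DMXAA, against 504, 355 and 445 with DMSO. DMXAA libraries were all lower, although the WT DMSO libraries were spread widely, and the log2 change was -1.08 ± 0.11, adjusted p = 7.85e-06 in KO and -0.82 ± 0.14, adjusted p = 6.76e-04 in WT BMMs. Its relative Rab4b was called higher, by 0.50 in KO and 0.38 in WT BMMs, and was not called with the same total (0.12 and 0.07). Of the exon bases of Rab4b, 65.0% lie within exons of a read-through gene on the same strand (Gm21983), so reads of Rab4b and of that gene may be split. Rab11a, the Rab of slow recycling, was called higher by 0.29 and 0.21 but had -0.10 and -0.11 with the same total, and its WT call was lost without WT DMXAA replicate 2 (adjusted p = 0.0512). Rab11b, Rab12 and Rab35 were not called in either genotype, with values between -0.10 and 0.10 on the deposited scale. With the same total they were called lower in both, with -0.37, -0.48 and -0.29 in KO and -0.24, -0.28 and -0.23 in WT BMMs, and Rab12 in KO BMMs also with the same upper quartile (adjusted p = 0.00462). Rab15, of sorting and recycling endosomes, passed the filter in WT but not in KO BMMs, and its WT values (36.0, 55.3 and 60.1 with DMXAA, against 16.9, 34.8 and 39.6 with DMSO) overlapped.

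The late endosomal and autophagic Rabs had 3 higher and 1 lower call among 6 in each genotype. Rab9 returns mannose 6-phosphate receptors from late endosomes to the Golgi. Rab9, at chrX:166457253-166479867, had 1960.5, 1905 and 1971 normalized counts in the KO DMXAA libraries, against 1062, 1108 and 1228 in the KO DMSO libraries. In WT BMMs it had 2259.6, 2208 and 2135 normalized counts in the WT DMXAA libraries, against 1149, 1135 and 1171 in the WT DMSO libraries. The treatments were far apart, with log2 changes of 0.78 ± 0.07, adjusted p = 3.62e-06 in KO and 0.93 ± 0.06, adjusted p = 4.84e-07 in WT BMMs. Rab29, a Golgi and lysosome Rab that recruits the kinase LRRK2, had 2206, 2627 and 2288 normalized counts in the KO DMXAA libraries, against 1383, 1399.6 and 1456 in the KO DMSO libraries. The WT libraries held 2349.6, 2182 and 2111 with DMXAA, against 1524, 1513 and 1517 with DMSO. Again no DMXAA library overlapped with a DMSO library, and the log2 change was 0.74 ± 0.07, adjusted p = 8.17e-06 in KO and 0.54 ± 0.06, adjusted p = 3.72e-05 in WT BMMs. Rab7b, which acts in transport from late endosomes to the Golgi and in the traffic of Toll-like receptors, had 24165, 25246 and 25354 normalized counts in the KO DMXAA libraries, against 14218, 15447 and 14263 in the KO DMSO libraries. Its WT values were 24097, 23676 and 23069.6 with DMXAA, against 18272, 17693 and 17404 with DMSO. DMXAA libraries were higher in each genotype, and the log2 change was 0.77 ± 0.05, adjusted p = 1.54e-07 in KO and 0.41 ± 0.04, adjusted p = 1.63e-05 in WT BMMs, although in WT BMMs Rab7b was not called with the same total (0.09). Rab33b, which binds the autophagy protein Atg16l1, fell by 0.36 in KO and 0.41 in WT BMMs on the log2 scale. Rab7 was not called (0.04 ± 0.04 in KO, 0.08 ± 0.04 in WT), nor was Rab24, an autophagy Rab. With the same total, Rab7 was called lower in both (-0.35 and -0.23) and Rab24 in KO BMMs (-0.31). Of the exon bases of Rab24, 62.4% overlap those of Prelid1 on the opposite strand, and whether the reads were counted by strand is not given in the sources used here.

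Among the ER and Golgi Rabs, the largest rise and the largest fall of the family stood side by side. Rab19 is a little studied Golgi Rab with a reported part in cilium formation. Rab19, at chr6:39381175-39390380, had 439, 446 and 394 normalized counts in the KO DMXAA libraries, against 124, 126 and 110.0 in the KO DMSO libraries. In WT BMMs it had 486, 526 and 418 normalized counts in the WT DMXAA libraries, against 231, 190.0 and 151 in the WT DMSO libraries. The DMXAA libraries were all higher, and the WT DMSO libraries were the more widely spread of the DMSO groups. The log2 change was 1.82 ± 0.12, adjusted p = 3.20e-07 in KO and 1.33 ± 0.16, adjusted p = 4.92e-05 in WT BMMs. Rab6b is the isoform of the Golgi Rab6 best known from neurons. Rab6b, at chr9:103111787-103185276, had 87.3, 80.6 and 82.2 normalized counts in the KO DMXAA libraries, against 593, 562 and 555 in the KO DMSO libraries. The WT values were 60.7, 53.2 and 75.1 with DMXAA, against 447, 421 and 422 with DMSO. Its counts were several times lower with DMXAA in every library, with log2 changes of -2.76 ± 0.11, adjusted p = 7.81e-09 in KO and -2.76 ± 0.15, adjusted p = 1.51e-07 in WT BMMs. Rab6a, the ubiquitous isoform, was called higher by 0.24 in KO and 0.24 in WT BMMs, but had -0.15 and -0.07 with the same total. There it was called lower in KO and not called in WT BMMs. Rab1a, which acts from the ER to the Golgi, was called higher by 0.41 and 0.37, and was not called with the same total (0.03 and 0.05). Rab1b, Rab2a, Rab2b, Rab18 and Rab36 were not called in either genotype on the deposited scale. With the same total, Rab1b (-0.33 and -0.40), Rab2a (-0.39 and -0.30), Rab2b (-0.42 and -0.25) and Rab18 (-0.32 and -0.21) were called lower in KO and WT BMMs.

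The 250 bases before the RefSeq start sites of Rab19 and Rab34 (GRCm38.p6) are shown because, of the members that rose or fell in both genotypes under each scaling and had a RefSeq window, these are the ones whose window held a short motif of interferon signalling. They were chosen after their values were seen. The window of Rab6b, which had the largest fall, held neither motif. The letters searched, on both strands, were GAAA, any 2 bases and GAAA for the core of the interferon-stimulated response element and TTCNNNGAA for the gamma-activated site, and capitals mark the matches. The motifs do not overlap each other in these windows.
Rab19, chr6:39381103-39381352, plus strand: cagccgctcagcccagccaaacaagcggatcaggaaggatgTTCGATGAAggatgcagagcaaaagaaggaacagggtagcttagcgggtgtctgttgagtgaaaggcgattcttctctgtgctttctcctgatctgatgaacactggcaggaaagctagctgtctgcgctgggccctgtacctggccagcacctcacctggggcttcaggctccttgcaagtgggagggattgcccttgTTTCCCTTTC
Rab34, chr11:78188177-78188426, plus strand: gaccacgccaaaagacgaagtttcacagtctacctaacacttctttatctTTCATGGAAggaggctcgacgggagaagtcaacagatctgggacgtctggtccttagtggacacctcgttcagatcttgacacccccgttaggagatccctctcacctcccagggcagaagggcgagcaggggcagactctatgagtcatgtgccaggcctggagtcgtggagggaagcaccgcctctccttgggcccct
In Rab19 the response element core is TTTCCCTTTC on the plus strand, at -10 to -1 from the RefSeq start, and the gamma-activated core lies at -209 to -201. The GENCODE annotation starts Rab19 further upstream, at base 39381175, within this window. In Rab34 the gamma-activated core lies at -200 to -192, and a second RefSeq start of Rab34 had neither motif. Of the 45 members matched to a RefSeq window, 1 held the response element core (2.22%, against 3.46% of 27025 genes) and 4 held the gamma-activated core (Rab11a, Rab15, Rab19 and Rab34; 8.89%, against 8.13% of genes). The shares were near those of all genes, and these matches describe letters in a window, not binding.

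All 4 Rabs of transport from the Golgi to the plasma membrane were called higher in both genotypes on the deposited scale, and Rab8a kept that call under each scaling. Rab8a directs vesicles from the Golgi and recycling endosomes to the surface and to cilia. Rab8a, at chr8:72161200-72183904, had 12255, 13171 and 12737 normalized counts in the KO DMXAA libraries, against 6252, 6015 and 6443 in the KO DMSO libraries. In WT BMMs it had 11117, 11421 and 11829.5 normalized counts in the WT DMXAA libraries, against 6467, 6037 and 6338 in the WT DMSO libraries. The ranges lay far apart, with log2 changes of 1.03 ± 0.05, adjusted p = 2.01e-08 in KO and 0.87 ± 0.05, adjusted p = 1.84e-07 in WT BMMs. Rab8b, its closest relative, was called higher by 0.62 in KO and 0.36 in WT BMMs, and with the same total its call held in KO (0.23) but not in WT (0.04). Rab13, known from tight junctions, was called higher by 0.39 and 0.37, and was not called with the same total. Rab10, which carries TLR4 to the macrophage surface, was called higher by 0.22 and 0.15 on the deposited scale and was called lower with the same total (-0.17 and -0.17). Its WT call on the deposited scale was lost without any 1 of 5 of the 6 libraries (adjusted p up to 0.106). These 4 genes supplied 11.7% to 12.2% of Rab reads in KO DMXAA libraries, 11.3% to 11.6% in WT DMXAA, 8.81% to 9.36% in KO DMSO and 9.05% to 9.74% in WT DMSO libraries, a share that does not depend on the scaling. In each genotype the DMXAA libraries were above the DMSO libraries in this share. Most of these reads were of Rab8b and Rab8a (172461 and 107721 over all libraries, beside 69967 of Rab10 and 23992 of Rab13). The share also depends on Rab7, which supplied less of the Rab reads with DMXAA. Rab7 supplied 27.3% to 28.4% in KO DMXAA and 32.2% to 32.5% in KO DMSO libraries. In WT BMMs it supplied 29.1% to 29.9% with DMXAA and 31.2% to 32.8% with DMSO.

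Of the Rabs of regulated granule secretion, 2 of 5 tested fell in KO and 3 of 5 in WT BMMs on the deposited scale, and 4 were called lower in each genotype with the same total. None was called higher by limma, edgeR or DESeq2, nor was any higher at an unadjusted p below 0.05 (0 of 5 in each genotype). Of all genes, 33.7% were higher and 32.9% lower in KO and 31.7% and 31.1% in WT BMMs. With the same total, 61.7% and 55.6% of all genes were lower in KO and WT BMMs. Counts among 5 genes cannot set the group apart from these shares. Rab3d regulates the exocytosis of secretory granules. Rab3d, at chr9:21907491-21918192, had 3225, 3397 and 3240.5 normalized counts in the KO DMXAA libraries, against 4722, 4673 and 4829 in the KO DMSO libraries. The values in WT BMMs were 2134, 2266 and 2215 with DMXAA, against 3303, 3622 and 3471 with DMSO. All DMXAA libraries were lower, and the log2 change was -0.53 ± 0.05, adjusted p = 4.47e-06 in KO and -0.65 ± 0.06, adjusted p = 5.99e-06 in WT BMMs. Rab27a, which docks lytic granules and exosome-forming bodies at the membrane, fell by 0.47 in WT BMMs (adjusted p = 0.00485) and had -0.29 ± 0.14 in KO BMMs, where it was not called (adjusted p = 0.0847). In KO BMMs it was called lower under both other scalings, with -0.44 (adjusted p = 0.0174) for the same upper quartile and -0.68 (adjusted p = 0.0015) for the same total. Rab44, an unusually large Rab known from mast cell granules, was close to the filter and passed it only through its DMSO libraries. It is counted among the falls above, but its test could hardly have come out higher. Its values were 1.05, 11.98 and 1.11 in KO DMXAA libraries, against 18.8, 27.2 and 17.2 in KO DMSO libraries, and 8.99, 2.13 and 1.16 in WT DMXAA libraries, against 27.0, 15.3 and 17.8 in WT DMSO libraries. Its log2 changes of -2.50 ± 0.75, adjusted p = 0.0131 in KO and -2.33 ± 0.66, adjusted p = 0.0112 in WT BMMs rest on these few reads, and without KO DMSO replicate 2 the KO call was lost (adjusted p = 0.0565). Rab3a and Rab37 were not called on the deposited scale, and Rab3a was called lower with the same total (-0.66 in KO and -0.45 in WT BMMs). The granule Rabs supplied 1.21% to 1.31% of Rab reads in KO DMXAA libraries, 0.927% to 0.954% in WT DMXAA, 2.04% to 2.14% in KO DMSO and 1.52% to 1.72% in WT DMSO libraries. Most of these were Rab3d reads (42309 over all libraries, beside 5208 of Rab27a and 4666 of Rab3a), so this share mostly follows Rab3d.

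Of the phagosomal and lysosome-related Rabs, 3 of 6 tested fell in each genotype, while 1 was called higher in KO and 2 in WT BMMs. Rab34 acts in the fusion of phagosomes with lysosomes and in the placing of lysosomes. Rab34, at chr11:78188430-78192193, had 634, 746 and 739.6 normalized counts in the KO DMXAA libraries, against 3613, 3434 and 3749.8 in the KO DMSO libraries. In WT BMMs Rab34 had 989, 867 and 944 normalized counts in the WT DMXAA libraries, against 3686, 3199 and 3286 in the WT DMSO libraries. With DMXAA its level was several times lower in all libraries, and the log2 change was -2.35 ± 0.08, adjusted p = 1.41e-09 in KO and -1.86 ± 0.08, adjusted p = 1.76e-08 in WT BMMs. Rab32, which serves lysosome-related organelles, had 3744, 3627 and 3776 normalized counts in the KO DMXAA libraries, against 5082, 5156 and 5465 in the KO DMSO libraries. Its WT values were 3592, 3753 and 3588 with DMXAA, against 5315, 5216 and 5141 with DMSO. The treatments did not overlap, with log2 changes of -0.49 ± 0.05, adjusted p = 9.39e-06 in KO and -0.52 ± 0.05, adjusted p = 8.80e-06 in WT BMMs. Rab20, a Rab of phagosome maturation, fell by 0.52 in KO and 0.29 in WT BMMs, and the WT call was lost without any 1 of 4 of the WT libraries (adjusted p up to 0.114). Rab43, which acts at the Golgi and in antigen cross-presentation in mouse dendritic cells, was the member of this group that rose in both genotypes. Rab43 had 15284, 16337 and 16297 normalized counts in the KO DMXAA libraries, against 9741, 9736 and 10733 in the KO DMSO libraries. In WT BMMs the values were 15809, 15939 and 15253 with DMXAA, against 8576, 9285 and 9409 with DMSO. Its log2 change was 0.67 ± 0.05, adjusted p = 1.24e-06 in KO and 0.79 ± 0.05, adjusted p = 4.51e-07 in WT BMMs, but 75.4% of its exon bases lie within exons of another protein-coding gene model on the same strand (Gm45140), so its reads may be split. Rab39, of phagosomes, was called higher in WT BMMs by 0.47 on the deposited scale but not with the other scalings. Rab14 was not called in either genotype, with 0.07 ± 0.04 in KO and -0.02 ± 0.06 in WT BMMs, but was called lower in both with the same total (-0.32 and -0.34).

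**Figure D3:**
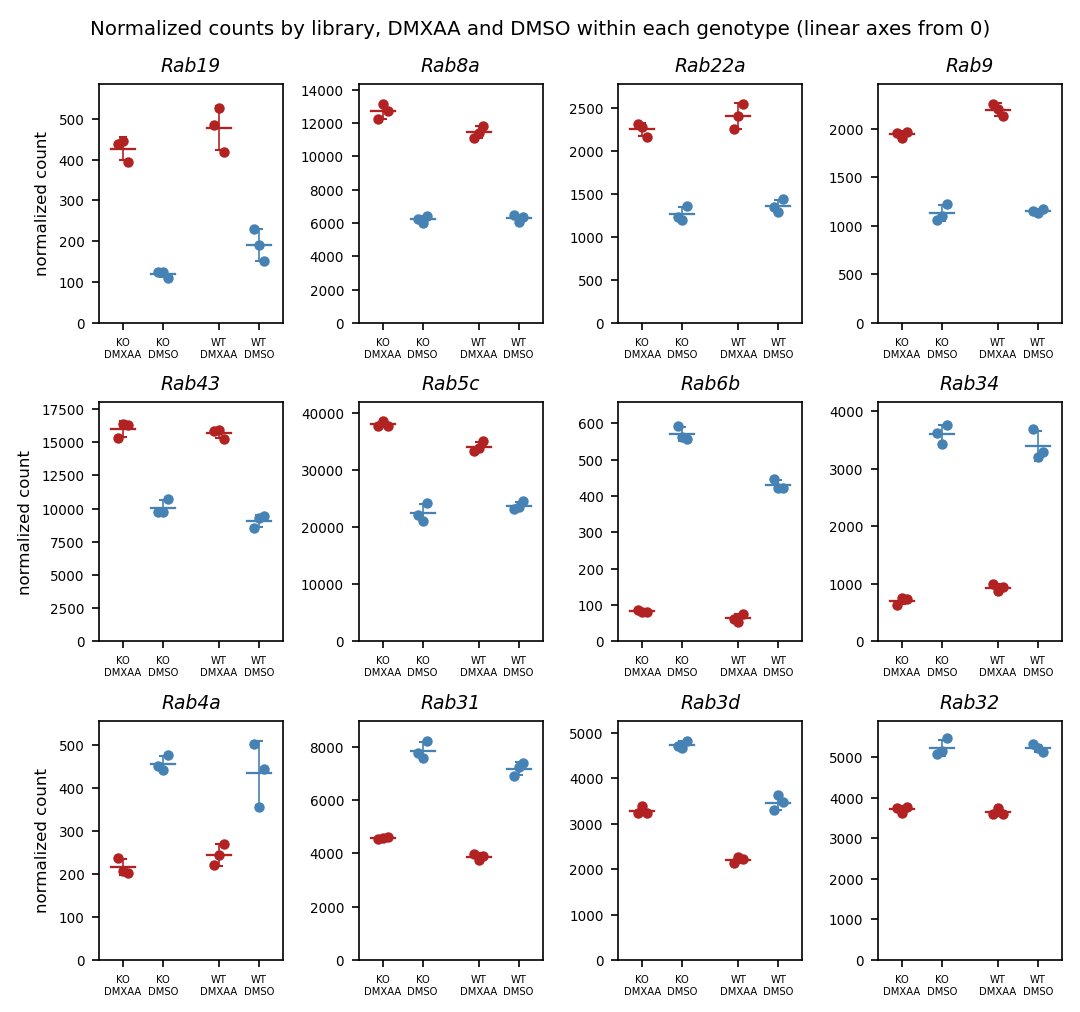
Normalized counts of 12 Rab genes by library (points), with the mean (line) and SD (bar) of 3 libraries, on linear axes from 0; DMXAA in red and DMSO in blue. KO and WT values come from separately normalized tables, so levels are compared within a genotype, and in all 12 panels the treatments do not overlap.

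Of the Rabs grouped as other, Rab23 and Rab28 were called in both genotypes. Rab23 restrains Hedgehog signalling. Its values were 219.8, 203 and 204 in KO DMXAA libraries, against 367, 418 and 392 in KO DMSO libraries, and 284, 285 and 275 in WT DMXAA libraries, against 361, 412 and 416 in WT DMSO libraries. Both genotypes had lower counts with DMXAA, with log2 changes of -0.91 ± 0.11, adjusted p = 2.99e-05 in KO and -0.49 ± 0.10, adjusted p = 0.00201 in WT BMMs. Rab28, known from cilia and photoreceptors, was called higher by 0.33 in KO and 0.41 in WT BMMs, but with the same total it had -0.06 and 0.09, neither called. Rab40c, part of a ubiquitin ligase, was not called on the deposited scale and was called lower with the same total (-0.22 and -0.23). Rab38, of lysosome-related organelles, and Rab42 passed the filter only in the comparison of the genotypes with DMSO. Rab38 had 14.6, 8.34 and 15.3 in KO DMSO libraries, against 10.4, 25.7 and 6.65 in WT DMSO libraries, and Rab42 had 3.90, 18.5 and 11.0 in KO DMSO libraries, against 15.1, 17.1 and 11.1 in WT DMSO libraries, and neither was called. The other 7 members passed in no comparison (Rab3b, Rab3c, Rab26, Rab30, Rab33a, Rab39b and Rab40b), each with 0 to 19 reads per library.

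**Figure D4:**
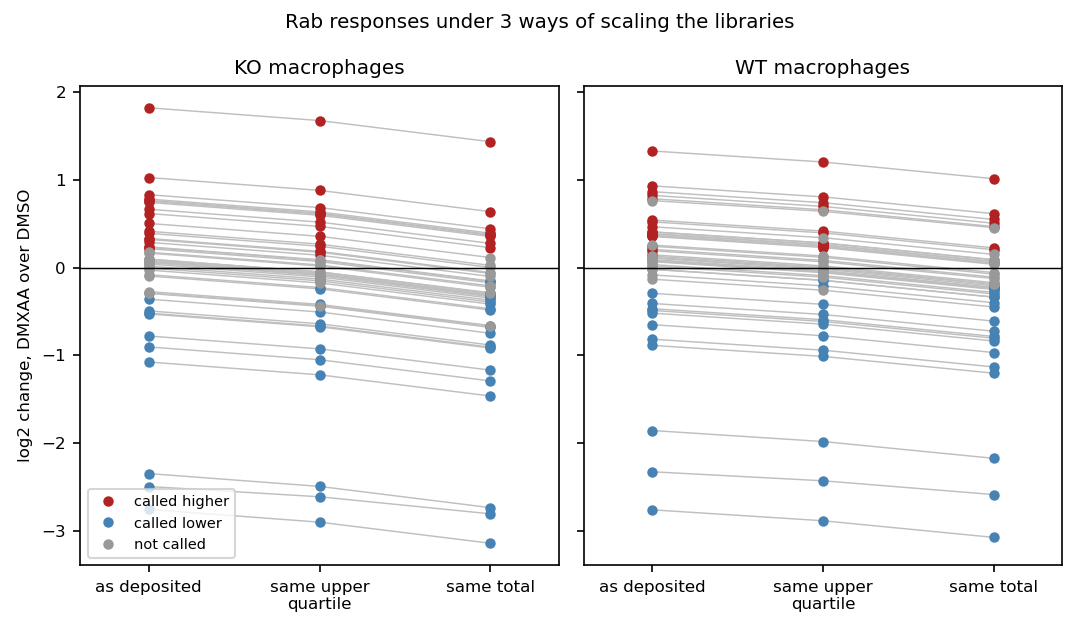
Log2 change with DMXAA over DMSO of each tested Rab gene (1 line each) in KO and WT BMMs, with values as deposited and after rescaling to an equal upper quartile or an equal total per library; red, called higher; blue, called lower; grey, not called. The calls of Rab19, Rab8a, Rab6b and Rab34 hold in all 3, whereas of the members called higher as deposited, Rab5a, Rab6a, Rab10 and Rab11a cross 0 in both genotypes and Rab21 and Rab28 in KO. Members not called as deposited also cross 0, among them Rab7, Rab11b and Rab18 in both genotypes.

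KO and WT BMMs were next compared under DMXAA. Of 45 members tested, 3 were called higher and 8 lower in KO BMMs, against a background of 21.5% of 12499 genes called, 10.7% higher and 10.8% lower. The median log2 difference of the members was -0.01, beside -0.0020 for all genes. The calls included lower levels of Rab39, Rab34, Rab36 and Rab15 and a higher level of Rab3d in KO BMMs. Rab39, at chr9:53684110-53706232, had 50.9, 61.3 and 64.5 normalized counts in the KO DMXAA libraries, against 148, 149.7 and 139.5 in the WT DMXAA libraries. Its KO libraries were all below its WT libraries, with a log2 difference of -1.30 ± 0.17, adjusted p = 3.53e-04. Rab15, at chr12:76797960-76822908, had few reads in KO BMMs, with 0, 16 and 1 reads in KO DMXAA libraries, against 32, 52 and 52 reads in WT DMXAA libraries. Most of the KO reads came from replicate 2, and Rab15 passed the filter only through its WT libraries. The mean normalized count was 8.42 times lower in KO, and the log2 difference, which for so few reads depends on the added 1, was -3.86 ± 0.88, adjusted p = 0.0102. Rab36, a Golgi and late endosome Rab whose mean count was below 100 and which is named here after its values were seen, had 39.6, 34.1 and 32.8 normalized counts in the KO DMXAA libraries, against 102, 112 and 58.6 in the WT DMXAA libraries. The WT libraries were spread but all higher, and the log2 difference was -1.28 ± 0.27, adjusted p = 0.00673. With DMSO the KO libraries of Rab36 (79.9, 69.5 and 26.3) were also all below the WT libraries (84.9, 96.1 and 85.3), but the difference was not called (-0.74 ± 0.35, adjusted p = 0.192).

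Rab3d had 2890.4, 3037 and 2897 normalized counts in the KO DMXAA libraries, against 1973, 2083 and 2042 in the WT DMXAA libraries. KO libraries were all higher, with a log2 difference of 0.53 ± 0.05, adjusted p = 5.91e-05. Rab34 had 568, 667 and 661 normalized counts in the KO DMXAA libraries, against 915, 797 and 870.2 in the WT DMXAA libraries. Here the KO libraries were all lower, with a log2 difference of -0.45 ± 0.09, adjusted p = 0.00511. Rab23 was also lower, with 197, 181 and 183 in KO DMXAA libraries, against 263, 262 and 253 in WT DMXAA libraries, and a log2 difference of -0.47 ± 0.11, adjusted p = 0.0107. Rab31 was higher in KO, with 4066, 4089.9 and 4111 in KO DMXAA libraries, against 3687, 3443 and 3599 in WT DMXAA libraries (0.19 ± 0.05, adjusted p = 0.0138). This call was lost without WT DMXAA replicate 2 (adjusted p = 0.0609). Rab5c was called higher by 0.11, with 33893, 34551 and 33818 in KO DMXAA libraries, against 30942, 31159.8 and 32373 in WT DMXAA libraries (adjusted p = 0.0381). That call was lost with either other scaling and without any 1 of 5 of the 6 libraries. Lower calls also fell on Rab9 (-0.22), Rab20 (-0.34) and Rab21 (-0.15), and each of these could be lost by leaving out 1 library. The Rab9 call was lost without WT DMXAA replicate 1 (adjusted p = 0.0586), the Rab20 call without any 1 of 5 libraries (up to 0.144) and the Rab21 call without any 1 of the 6 (up to 0.157).

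With DMSO, 48 members were tested, and 3 were called higher and 4 lower in KO BMMs, against a background of 16.6% of 12814 genes called, 7.04% higher and 9.58% lower. Rab39 had 62.3, 61.2 and 65.8 normalized counts in the KO DMSO libraries, against 121, 127 and 136 in the WT DMSO libraries. As under DMXAA, no KO library reached the WT range, with a log2 difference of -1.01 ± 0.17, adjusted p = 0.00194. Rab15 had 0, 12 and 4 reads in KO DMSO libraries, against 20, 41 and 40 reads in WT DMSO libraries. Its log2 difference was -3.04 ± 0.81, adjusted p = 0.0261, and the call was lost without WT DMSO replicate 2 or 3 (adjusted p = 0.0872 and 0.0904). Rab3d had 5138, 5103 and 5245 normalized counts in the KO DMSO libraries, against 3699.6, 4063 and 3884 in the WT DMSO libraries, and the KO libraries were again all higher (0.41 ± 0.06, adjusted p = 6.26e-04). The genotypes thus differed in the same direction in Rab15, Rab39 and Rab3d with either treatment. These comparisons share no library, but the labels do not say whether they share mice or cultures, so they may not be independent. Rab15 passed the filter only through its WT libraries in both.

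Rab7b had 15471, 16869 and 15492 normalized counts in the KO DMSO libraries, against 20468, 19849 and 19474 in the WT DMSO libraries. The KO libraries were all lower with DMSO (-0.32 ± 0.05, adjusted p = 0.0016), while under DMXAA the log2 difference was 0.03 ± 0.04 and was not called (adjusted p = 0.571). Rab19 had 134, 137 and 119 normalized counts in the KO DMSO libraries, against 259, 213 and 169 in the WT DMSO libraries. KO libraries were all lower (-0.69 ± 0.17, adjusted p = 0.0175), a call lost without KO DMSO replicate 3 or WT DMSO replicate 1 or 2 (adjusted p up to 0.0621). Rab6b was higher in KO BMMs with DMSO, with 645, 614 and 603 in KO DMSO libraries, against 500.2, 472 and 472 in WT DMSO libraries (0.37 ± 0.09, adjusted p = 0.0149). This call was lost without KO DMSO replicate 1 or WT DMSO replicate 2 (adjusted p = 0.0697 and 0.0553), and under DMXAA the log2 difference was 0.37 ± 0.20. Rab24 was called higher by 0.23 (adjusted p = 0.0474), with 2689, 2475 and 2563 in KO DMSO libraries, against 2360.4, 2157 and 2097 in WT DMSO libraries, but the call was lost with the same upper quartile and without any 1 of 5 of the 6 libraries.

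**Figure D5:**
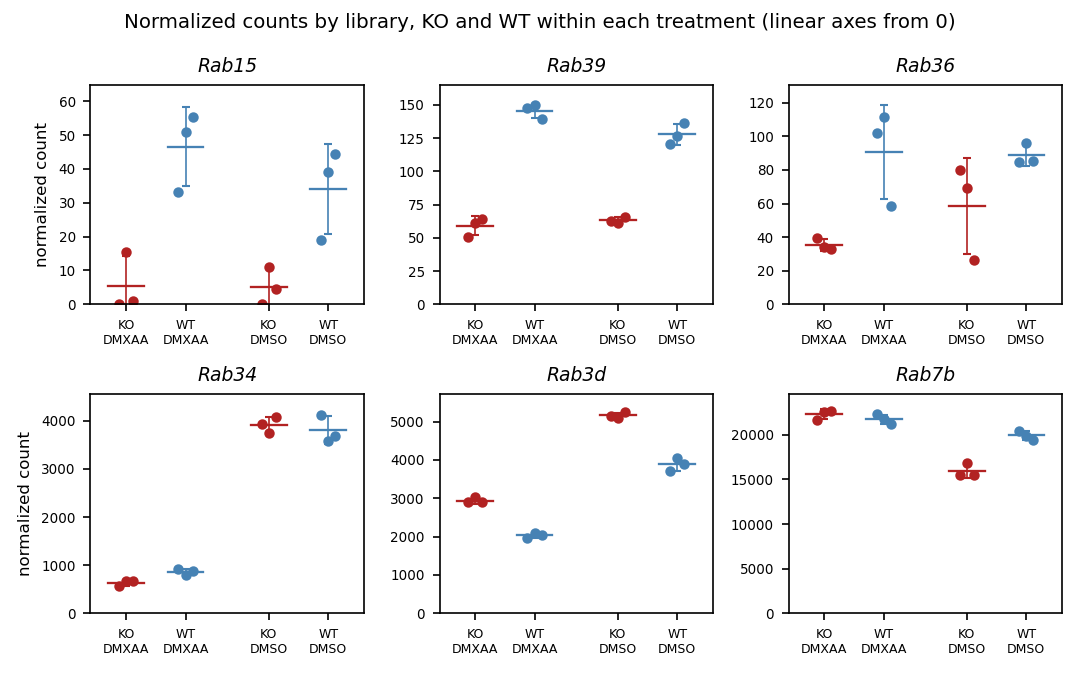
Normalized counts by library (points) of 6 Rab genes, with the mean (line) and SD (bar) of 3 libraries, on linear axes from 0; KO in red and WT in blue. DMXAA and DMSO values come from separately normalized tables, so levels are compared within a treatment: KO and WT do not overlap in Rab15, Rab39, Rab36 and Rab3d with either treatment, in Rab34 with DMXAA, and in Rab7b with DMSO.

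Whether the response to DMXAA differed between the genotypes was tested as the difference of the genotype differences over all 12 libraries. Of 46 members tested, 2 had a larger and 1 a smaller log2 change in KO than in WT BMMs, against a background of 8.6% of 12729 genes called, 5.37% in the larger and 3.24% in the smaller direction. Rab7b rose more in KO BMMs, by 0.36 ± 0.06, adjusted p = 0.00199 on the log2 scale. Its level in RPKM was 51.8 ± 1.01 in KO DMXAA, 52.1 ± 1.499 in WT DMXAA, 39.9 ± 2.39 in KO DMSO and 48.9 ± 1.05 in WT DMSO libraries, lowest in KO DMSO. Rab34 fell more in KO BMMs, with a difference of -0.49 ± 0.11, adjusted p = 0.0135. Both calls held with each scaling and with every library left out in turn. Rab5c rose more in KO BMMs by 0.23 ± 0.07, adjusted p = 0.0416, but this call was lost with either other scaling (adjusted p = 0.0647 and 0.112) and in 9 of the 12 fits that left out 1 library. Rab23 and Rab19, whose fitted differences were -0.42 ± 0.14 and 0.49 ± 0.20, were not called (adjusted p = 0.0772 and 0.171), although with the same total Rab23 was (-0.49, adjusted p = 0.042).

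The machinery that loads, unloads and reads the Rabs was followed in a list of 145 genes, of which 138 had reads. In KO BMMs, 38 of 131 tested rose and 51 fell with DMXAA (29% and 38.9%, against 33.7% and 32.9% of all genes). In WT BMMs 37 of 132 rose and 47 fell (28% and 35.6%, against 31.7% and 31.1% of all genes), so the shares were near those of all genes. The median log2 change was -0.07 in KO BMMs, beside -0.0033 for all genes. With the same total, 19 were higher and 97 lower in KO (14.4% and 73.5%, against 15.7% and 61.7% of all genes) and 18 higher and 84 lower in WT BMMs (13.6% and 63.6%, against 16% and 55.6% of all genes), and the genes named below kept their direction and call there. Of 8 genes for Rab escort, GDI and prenylation, 4 fell in each genotype. None was called higher by limma, edgeR or DESeq2, and at an unadjusted limma p below 0.05 there were 0 higher in KO and 1 in WT BMMs. Those that fell included Rabac1, a membrane factor that dissociates Rabs from GDI (-0.54 in KO and -0.53 in WT BMMs), and Chml, a Rab escort protein (-0.50 and -0.46).

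Among 34 tested GAPs, 9 rose and 17 fell in KO BMMs (26.5% and 50%, against 33.7% and 32.9% of all genes). In WT BMMs 8 rose and 16 fell (23.5% and 47.1%, against 31.7% and 31.1% of all genes). Tbc1d4, a GAP for the Rabs of glucose transporter vesicles, had 70.5, 57.7 and 78.8 normalized counts in the KO DMXAA libraries, against 429, 390.4 and 333 in the KO DMSO libraries. In WT BMMs its values were 73.1, 84.1 and 45.1 with DMXAA, against 274, 299 and 370.2 with DMSO. All DMXAA libraries were lower, with log2 changes of -2.46 ± 0.16, adjusted p = 3.38e-07 in KO and -2.24 ± 0.23, adjusted p = 1.55e-05 in WT BMMs. Sgsm2 fell by 1.89 in KO and 2.17 in WT BMMs, and Tbc1d16, a GAP for Rab4a in human cells, changed by -1.81 and -1.20. Tbc1d9 was the GAP that rose most, by 1.24 in KO and 1.34 in WT BMMs. Tbc1d10b rose by 0.57 and 0.72.

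Among 34 tested GEFs, 15 rose and 9 fell in KO BMMs (44.1% and 26.5%, against 33.7% and 32.9% of all genes). In WT BMMs 14 rose and 9 fell (41.2% and 26.5%, against 31.7% and 31.1% of all genes). Members of the DENN domain family, whose best known activity is exchange on Rabs, moved both ways. Dennd6b had 969, 1054 and 989 normalized counts in the KO DMXAA libraries, against 238, 233 and 248 in the KO DMSO libraries. The WT values were 1270.4, 1366 and 1237 with DMXAA, against 221, 199 and 201 with DMSO. Its DMXAA libraries were all higher, by 2.06 ± 0.09, adjusted p = 8.85e-09 in KO and 2.63 ± 0.09, adjusted p = 3.53e-09 in WT BMMs. Dennd1b, a GEF of Rab35, rose by 1.45 in KO and 1.69 in WT BMMs, and Dennd2c fell by 2.39 and 2.53. Rin3, a GEF of Rab5 and of Rab31, fell by 1.41 and 1.24, and Als2cl by 1.41 and 1.22.

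Of the effectors, 14 of 55 tested rose and 21 fell in KO BMMs (25.5% and 38.2%, against 33.7% and 32.9% of all genes). In WT BMMs 15 of 56 rose and 18 fell (26.8% and 32.1%, against 31.7% and 31.1% of all genes). Mical1, which binds Rab8 and Rab35 family members and oxidizes actin, fell by 1.39 in KO and 1.63 in WT BMMs. Ankfy1, a Rab5 effector also called Rabankyrin-5, rose by 1.11 in KO BMMs, with 10496, 10025 and 10734 normalized counts with DMXAA, against 4839.9, 5076 and 4585 with DMSO, and also rose in WT BMMs, with 9660.3, 10273 and 10232 with DMXAA, against 4658, 5358 and 5076 with DMSO (adjusted p = 2.93e-07). Unc13d, the Rab27a effector Munc13-4 that primes granules for fusion, rose by 1.05 in KO (6176, 6451 and 6615 normalized counts with DMXAA, against 3314, 2949 and 3048 with DMSO) and by 1.03 in WT BMMs, while Rab27a itself had -0.29 in KO, not called on the deposited scale, and -0.47 in WT BMMs. Between the genotypes, 15 of 128 listed genes were higher and 11 lower in KO BMMs under DMXAA (11.7% and 8.59%, against 10.7% and 10.8% of all genes). With DMSO, 15 of 132 were higher and 4 lower (11.4% and 3.03%, against 7.04% and 9.58% of all genes).

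The authors' deposited tables of comparisons called 18 Rab genes higher and 10 lower with DMXAA in each genotype at an adjusted p below 0.05, all 28 in the same direction as here in either genotype. Rab20 and Rab39 were called here in WT BMMs but not in the authors' test (adjusted p = 0.0545 and 0.0532). Between KO and WT, the authors' deposited tables called 4 higher and 7 lower under DMXAA, of which 10 were also called here, and 4 higher and 4 lower with DMSO, of which 7 were.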

How the data were processed

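Reads were aligned to mm10 with HISAT2 and counted per gene with featureCounts, per the submitters' processing notes, which give no versions. The authors deposited 4 tables of normalized counts (a signal per gene: reads divided by a factor per library), each of 6 libraries normalized on their own, and 4 tables of comparisons with log2 fold changes and adjusted p-values (deposited by the authors, used only where named). Within a library 100% of the values were whole multiples of 1 read (tolerance 0.01), so reads were recovered for depth, shares and count tests. Here each comparison was fitted with limma 3.58.1 (R 4.3.3, eBayes with trend, two-sided) on log2(value + 1) for genes with a mean of at least 10. Scripts were tested on simulated data. Alternatives were pseudocounts of 0.5 and 5, no filter, libraries scaled to the same upper quartile or total, edgeR 4.0.16 and DESeq2 1.42.0 on recovered reads, a replicate block, and leaving out each library. Members, roles and lists were chosen with earlier results of these data known. Genes were named by rule: the 6 highest and 6 lowest called with a mean of at least 100 in each response, the 3 highest and 3 lowest in each genotype comparison and, for regulators, among the 3 highest and 3 lowest of each class. Exon lengths and positions are from GENCODE vM21, promoters from RefSeq. Intervals from read depth cover counting error only. No pair of libraries in a group agreed within sampling noise.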

Additional observations from a re-analysis of the deposited data

Results flagged for a closer look

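Results were singled out where the log2 response to DMXAA differed between KO and WT BMMs in the interaction fit (limma, SE given). Of the Rab genes these were Rab34, with a KO minus WT difference of -0.49 ± 0.11 (adjusted p = 0.0135), Rab7b, with 0.36 ± 0.06 (adjusted p = 0.00199), and Rab5c, with 0.23 ± 0.07 (adjusted p = 0.0416). The Rab5c call was lost with either other scaling (adjusted p = 0.0647 and 0.112) and in 9 of the 12 fits that left out 1 library. Among the regulators and effectors, 12 of 131 tested were called (9.16%, against 8.6% of all genes), so the share was near that of all genes. Of these, 5 were among the genes named by the rule. Tbc1d16, a GAP, changed by -1.81 in KO and -1.20 in WT BMMs, a difference of -0.61 ± 0.15 (adjusted p = 0.0197). Dennd6b, of the DENN domain family, changed by 2.06 in KO and 2.63 in WT BMMs, a difference of -0.58 ± 0.11 (adjusted p = 0.00532). Dennd1a, a GEF of Rab35, changed by 1.27 in KO and 0.86 in WT BMMs, a difference of 0.40 ± 0.05 (adjusted p = 1.65e-04). Optn, a Rab8 effector also known as optineurin, changed by -0.94 in KO and -0.57 in WT BMMs, a difference of -0.37 ± 0.10 (adjusted p = 0.0324). Micall2, an effector of Rab13, changed by -0.83 in KO and -1.52 in WT BMMs, a difference of 0.69 ± 0.17 (adjusted p = 0.0191). The sums of macrophage markers (mainly through Lyz2) and of neutrophil markers also differed between the genotypes, and their part in these differences was not tested.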

How the results depend on the processing

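No pseudocount, filter or count test moved a count of Rab calls by over 1.5 times, whereas the scaling did. With the same total, Rab genes called in the response were 9 higher and 27 lower in KO and 7 higher and 24 lower in WT BMMs, and with the same upper quartile 16 were lower in KO BMMs. Regulators and effectors were 19 higher and 97 lower in KO and 18 higher and 84 lower in WT BMMs with the same total, and 25 higher in KO BMMs with the same upper quartile. For the difference of responses, 1 Rab was higher with either scaling and 2 lower with the same total, and 3 regulators were higher and 12 lower with the same total. Of the members called on the deposited scale, the log2 change reversed with the same total in KO BMMs for Rab10 (-0.17), Rab11a (-0.10), Rab21 (-0.066), Rab28 (-0.057), Rab5a (-0.16) and Rab6a (-0.15), and in WT BMMs for Rab10 (-0.17), Rab11a (-0.11), Rab5a (-0.12) and Rab6a (-0.073). Of these, Rab5a, Rab6a and Rab10 were called lower with the same total in KO BMMs, and Rab10 was in WT BMMs. The cause was not tested.

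Leaving out each library in turn gave, for Rab genes called higher and lower, 18 to 19 and 9 to 12 in the KO response, 17 to 20 and 9 to 11 in the WT response, 1 to 3 and 5 to 7 for KO against WT under DMXAA, 1 to 3 and 2 to 4 with DMSO, and 1 to 3 and 1 to 1 for the difference of responses. For regulators and effectors the ranges were 31 to 36 and 49 to 52, 34 to 38 and 46 to 49, 9 to 15 and 8 to 10, 7 to 16 and 1 to 4, and 4 to 5 and 4 to 7. Libraries with the same number in their titles had weak correlations of deviations (-0.036 to 0.066), which cannot settle whether libraries were paired. The library names number the DMSO libraries II to IV and the DMXAA libraries I to III, unlike the titles. A pairing of the treatments by library name was not fitted. With the title number as a block, Rab calls were 18 higher and 11 lower in KO, 19 and 11 in WT, 2 and 7 for KO against WT under DMXAA, 2 and 4 with DMSO, and 2 and 1 for the difference. Depth limits Rab15, Rab38, Rab42, Rab44 and the 7 untested members, all with few reads.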
